A study of Homo sapiens with 21 samples.

Results

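The 3 untreated libraries of a dose series on cells labelled HepG2 were described here, out of 21 libraries in all, and they were chosen by their label of 0 µM coumarin alone. The other 18 libraries received coumarin and enter no value below. Per the labels, the untreated cells were rinsed, changed from a medium with fetal bovine serum to DMEM without serum and kept there for 24 h, so each of the 3 untreated libraries comes from serum-free cells. The cells were then lifted with trypsin and EDTA, and RNA was selected on poly(dT) beads. The series text calls the 3 libraries biological replicates, but nothing says whether they came from separate cultures, so the SD may measure technical spread only.

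HepG2 is a human liver tumour line, known for making albumin, apolipoproteins, fibrinogen and alpha-fetoprotein under the control of the hepatocyte factors HNF4A and FOXA2. Epithelial cells are known by keratins, E-cadherin and EPCAM, and mesenchymal cells by vimentin, N-cadherin and fibrillar collagens. Levels below are the deposited FPKM, a read level scaled to gene length and library total, with the mean ± SD over n = 3 libraries unless said otherwise. A gene is called expressed at a mean of at least 1 FPKM and abundant at a mean of at least 100 FPKM. The libraries held 29953336, 29254566 and 29727205 counts in genes, and mitochondrial genes took 6.79% to 7.36% of them. The summed FPKM of replicate 1 was 1.076 times that of replicate 3. Replicate 1 was highest for some of the gene lists below but not for all. Genes of glucose uptake, glycolysis and lactate summed to 4268, 3964 and 4034 FPKM in replicates 1, 2 and 3. Receptor tyrosine kinase genes summed to 289.7, 299.8 and 290.2 FPKM.

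Of 19951 protein-coding genes, 10070 were expressed (50.5%), 291 were abundant (1.46%) and 4454 had 0 counts in all 3 libraries (22.3%). These shares are the background for each list of genes below.

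The data went against the label. ALB, the albumin gene, had 0 counts in each of the 3 libraries, and so did TTR, APOA1, APOB, APOC3, FGA, FGB, SERPINA1, TF, HP and RBP4, which encode further plasma proteins of the liver. A count of 0 allows up to 3 counts in a library, which for ALB is 0.0304 FPKM, for APOA1 0.072 FPKM and for SERPINA1 0.0209 FPKM. AFP, the alpha-fetoprotein gene, had 0, 1 and 0 counts. HNF4A had 1 count in each library. The cells are called untreated cells below, and no other cell type name is given to them.

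The highest nuclear protein-coding gene was PRSS56, a serine protease gene, which lies in a row with the alkaline phosphatase genes ALPP, ALPG and ALPI on chromosome 2. The sequence before the start of 4 genes is shown because of their levels: PRSS56 was the highest gene, ALPI was abundant, its relative and neighbour ALPG was expressed but not abundant, and ALB was at 0. Each window runs from 250 to 51 bases before the RefSeq start (GRCh38.p14, plus strand, 5′ to 3′) and holds no annotated exon. Capitals mark TATAAA or GTTAAT, each searched on both strands.
PRSS56, chr2:232520213-232520412: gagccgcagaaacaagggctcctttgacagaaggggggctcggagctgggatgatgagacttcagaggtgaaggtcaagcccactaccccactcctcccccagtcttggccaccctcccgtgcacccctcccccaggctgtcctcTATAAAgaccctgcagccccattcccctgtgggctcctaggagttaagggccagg
ALPI, chr2:232455903-232456102: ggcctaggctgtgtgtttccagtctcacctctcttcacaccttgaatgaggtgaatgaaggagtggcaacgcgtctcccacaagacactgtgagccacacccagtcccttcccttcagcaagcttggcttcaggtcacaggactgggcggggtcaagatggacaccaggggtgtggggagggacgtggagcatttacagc
ALPG, chr2:232406594-232406793: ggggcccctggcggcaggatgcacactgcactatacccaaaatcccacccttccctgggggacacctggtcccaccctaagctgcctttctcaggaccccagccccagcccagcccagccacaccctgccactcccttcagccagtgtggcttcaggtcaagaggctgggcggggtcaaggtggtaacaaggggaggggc
ALB, chr4:73404037-73404236: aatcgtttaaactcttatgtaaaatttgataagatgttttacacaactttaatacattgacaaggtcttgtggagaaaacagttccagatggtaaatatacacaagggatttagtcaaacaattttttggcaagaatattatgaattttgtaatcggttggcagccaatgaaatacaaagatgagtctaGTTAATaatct
The PRSS56 window held 1 TATAAA, beginning 105 bases before the start. The ALB window held 1 GTTAAT, beginning 61 bases before the start. TATAAA was found in 5.09% and GTTAAT in 4.23% of the 15334 protein-coding genes with such a window, and neither was found in the ALPI or ALPG windows. The letters are G or C in 62% of the PRSS56 window, 57.5% of the ALPI window, 65.5% of the ALPG window and 29.5% of the ALB window. In a global alignment ALPI and ALPG were identical in 53.1% of columns, ALPI and PRSS56 in 47.3%, ALPG and PRSS56 in 47.1%, and ALB and PRSS56 in 36.8%. A match describes the letters only. Bases closer to the start than 51 were not searched, so whether any of the 4 genes holds either motif there was not tested.

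PRSS56 (chr2:232520463-232525716) had 200204, 189661 and 200085 counts, or 2687, 2495 and 2586 FPKM. Its mean of 2589 ± 96.2 FPKM was above that of FTL, the ferritin light chain gene, at 2240 ± 161 FPKM, and of EEF1A1, a translation elongation factor gene, at 2075 ± 138 FPKM. PRSS56 stood above FTL and EEF1A1 in every library. TMSB10, which encodes a thymosin that binds actin monomers, followed at 1946 ± 145 FPKM, and GAPDH, the glycolytic dehydrogenase gene, at 1479 ± 60.1 FPKM. Of the 25 highest nuclear genes, 11 encode ribosomal proteins, led by RPL13A at 1433 ± 100 FPKM. Among the other 14 were S100A4 at 876 ± 50 FPKM, which encodes a calcium-binding protein of motile cells, the chaperone gene HSP90AB1 at 875 ± 73.8 FPKM and FTH1, the ferritin heavy chain gene, at 774 ± 64.8 FPKM.

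The PRSS56 neighbourhood was looked at after its values were seen. ALPP, the placental alkaline phosphatase gene, had 374, 328 and 329 FPKM, a mean of 344 ± 26.2. ALPI, the intestinal form, had 229, 219 and 223 FPKM, a mean of 224 ± 5.11. ALPG, the germ cell form, had 12.3, 10.7 and 11.2 FPKM. ALPP was therefore the highest of the 3 and ALPG the lowest in every library. These genes share much of their coding sequence, so reads could be split between them by the authors' counting. ALPL, the tissue-nonspecific form, which lies on chromosome 1, had a mean of 52.8 ± 2.97 FPKM.

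On the other side of PRSS56, CHRND, a subunit gene of the muscle acetylcholine receptor, had 37.0, 40.3 and 38.8 FPKM. CHRND begins at position 232525993, close after the end of PRSS56 at 232525716, and both lie on the plus strand. Whether reads counted for CHRND come from transcripts that run on past PRSS56 was not tested. CHRNG, the next gene on and a fetal subunit of the same receptor, had a mean of only 0.229 ± 0.0244 FPKM. ECEL1, an endopeptidase-like gene between ALPI and PRSS56, had 0.292 ± 0.0672 FPKM. EIF4E2, a cap-binding protein gene, had 11.4 ± 0.261 FPKM. Of these neighbours only ECEL1 and CHRNG were under 1 FPKM.

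**Figure D1:**
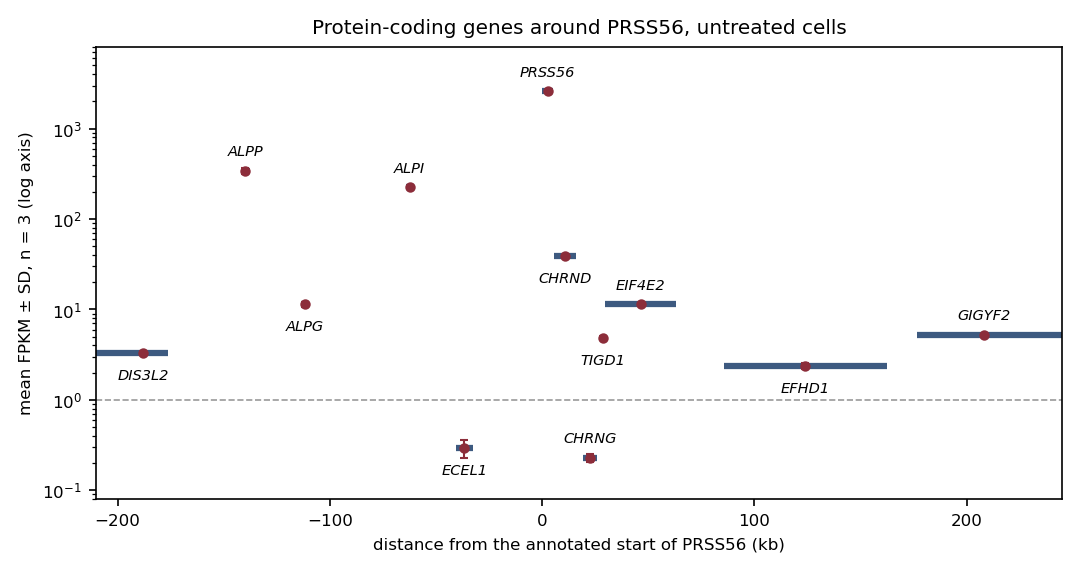
Mean FPKM ± SD over 3 untreated libraries (log axis) of the protein-coding genes around PRSS56, against distance from its annotated start in kb. Blue bars span each gene, red points carry the SD and the dashed line is 1 FPKM. PRSS56 stands at 2589, ALPP at 344 and ALPI at 224, while ECEL1 and CHRNG lie under 1.

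Of 33 hepatocyte plasma protein genes, 2 were expressed (6.06%) and 18 had 0 counts. APOM, an apolipoprotein gene of high-density lipoprotein and 1 of the 2, had 2.22, 1.74 and 1.73 FPKM. The summed list came to 49.5 ± 0.56 FPKM. VTN, the vitronectin gene, had a mean of 0.701 FPKM and C3, the complement component gene, one of 0.692 FPKM. Reads in overlapping genes can go uncounted, and 15 of the 18 genes at 0 overlap no other annotated gene on the same strand. TF overlaps 3 such genes. Only 9 of the 18 overlap none on either strand, and APOA1, APOB, HP and RBP4 each overlap a gene on the opposite strand. The strand setting of the counting is not given in the sources used here, so opposite-strand overlaps can matter too. No gene overlaps ALB on either strand. Overlap in this report is of whole gene spans, introns included, and need not touch an exon. CPS1, described below, overlaps 1 gene on its strand in this sense and had 408469 counts over the 3 libraries. Whether an overlap cost any gene its reads was not tested.

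Of 18 hepatocyte transcription factor genes, 3 were expressed (16.7%). NR2F1, an orphan nuclear receptor gene that many other tissues use, had 17.4, 16.7 and 17.8 FPKM. Its relative NR2F2 had 5.45 ± 0.0309 FPKM. FOXA1, a pioneer factor gene of several epithelia, had 3.46, 3.03 and 3.18 FPKM. FOXA2, PROX1, a regulator of liver growth, and NR1H4, the bile acid receptor gene, had 0 counts. The span of each of these 3 genes overlaps another annotated gene, FOXA2 on its own strand, and whether this cost reads was not tested. CEBPA, a liver and fat factor, had 0.667 ± 0.109 FPKM, under the threshold. The 3 expressed members are also made in many other tissues.

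None of 8 protein-coding genes of hepatoma and fetal liver was expressed. GPC3, a surface proteoglycan of liver tumours, and DLK1, a fetal Notch-like ligand, had 0 counts. H19, a noncoding imprinted RNA of the fetus, was present at 80.3, 70.7 and 92.0 FPKM. IGF2, the growth factor gene imprinted together with H19, had 1, 0 and 0 counts, but it overlaps 4 other annotated genes on its strand, whose reads can go uncounted. INS-IGF2, the readthrough gene among them, and a second IGF2 entry also had 0 counts.

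The hepatocyte enzyme list held exceptions. Of its 29 genes, 6 were expressed (20.7%), and 1 of them was abundant. CPS1 (chr2:210477682-210679107), which makes carbamoyl phosphate for the urea cycle, had 396, 403 and 394 FPKM, a mean of 398 ± 4.71. ASS1, the argininosuccinate synthase gene, had 60.9, 57.4 and 55.6 FPKM. ASL, its next step, had 4.80 ± 0.0675 FPKM, and SLC25A15, the mitochondrial ornithine carrier, had 13.2 ± 0.642 FPKM. OTC, the urea cycle gene between CPS1 and ASS1, had 0 counts in all 3 libraries, and ARG1, the liver arginase gene, had 10 counts over the 3. The span of OTC overlaps another annotated gene on its strand, and whether this cost reads was not tested. The deposited levels of the cycle genes ranged from 0 to 398 FPKM.

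HPD, which degrades tyrosine, had 32.5, 30.5 and 29.9 FPKM. FAH, a later enzyme of the same route, had 1.61 ± 0.0898 FPKM, while HGD between them had 6 counts in all, and TAT, the first enzyme, had 1. FBP1 and G6PC, which serve glucose production, and BHMT, a betaine methyltransferase gene, had 0 counts. KHK, the ketohexokinase gene, had 2.59 ± 0.155 FPKM. LANCL1, the gene next to CPS1, had 62.8 ± 1.37 FPKM.

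Of 12 hepatocyte transporter and receptor genes, 2 were expressed. ABCC2, a canalicular export pump gene, had 18.6, 20.2 and 20.4 FPKM. SLCO1B3, an organic anion uptake carrier gene, had 1.65, 1.98 and 1.74 FPKM. ASGR2, a subunit gene of the asialoglycoprotein receptor, had 0 counts, and ASGR1 had 1, 0 and 1. SLC10A1, the bile acid uptake carrier gene, had 6 counts in all.

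**Figure D2:**
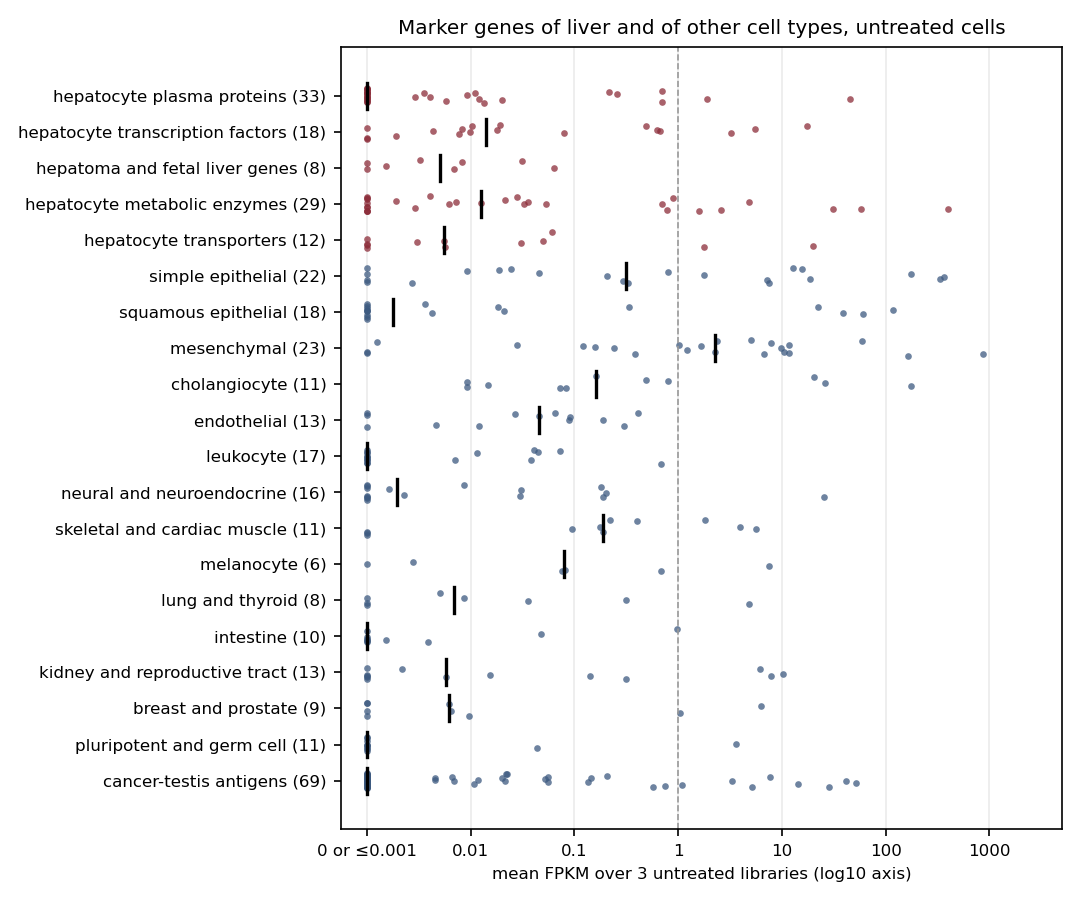
Mean FPKM over 3 untreated libraries (log10 axis) of each member of 20 marker lists, liver lists in red and lists of other cell types in blue, with the number of members in brackets. Black bars are list medians, the dashed line is 1 FPKM, and values at or very near 0 sit at the left edge. The median of the plasma protein list is 0, while that of the mesenchymal list is 2.25.

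Of 5 keratin genes of simple epithelia, KRT18, KRT8 and KRT7 were abundant and KRT19 and KRT20 were near 0, as were the epithelial adhesion genes EPCAM and CDH1. KRT18 had 399, 344 and 341 FPKM, KRT8, its partner, had 356, 318 and 332 FPKM, and KRT7 had 181, 172 and 177 FPKM. KRT8 and KRT18 overlap on opposite strands, and the strand setting of the counting is not given in the sources used here, so reads of their shared stretch cannot be told apart. EPCAM had 0 counts, and so had ESRP1, a splicing factor of epithelia, GRHL2 and OVOL2, regulators of the epithelial state. By gene span, only GRHL2 of these 4 genes overlaps no other annotated gene on its strand. Whether overlap cost the others reads was not tested. CDH1, the E-cadherin gene, had 3, 6 and 2 counts, KRT19 had 2, 0 and 0, and KRT20, an intestinal keratin gene, had 8 in all. In all, 9 of 22 simple epithelial genes were expressed (40.9%), among them MAL2 at 18.7 FPKM, ESRP2 at 15.7 FPKM, CLDN7 at 12.8 FPKM and ELF3 at 7.56 FPKM.

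Of 18 squamous genes, 4 were expressed. SFN, the stratifin gene, had 129, 110 and 112 FPKM, PERP, a desmosome-associated gene, had 60.6 ± 1.96 FPKM, and KRT17, a keratin of stressed and basal epithelia, had 39.1 ± 2.25 FPKM. TP63, the basal cell factor gene, had 3 counts in all, and KRT5, KRT6A, DSG3 and DSC3 had 0. The desmosomal cadherin gene DSG2, by contrast, had 30.6 ± 0.493 FPKM.

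Of 23 mesenchymal genes, 15 were expressed (65.2%). COL3A1, a fibrillar collagen gene, had 169, 163 and 159 FPKM, and VIM, the vimentin gene, had 61.8, 56.2 and 57.7 FPKM. CDH2, the N-cadherin gene, had 11.9, 11.6 and 11.8 FPKM, against 0.0156, 0.0305 and 0.01 FPKM of CDH1. TWIST2, TWIST1 and SNAI2, repressors of the epithelial state, had 11.8, 9.91 and 7.88 FPKM. The list was not uniform. COL1A1 had 10.4 ± 0.226 FPKM while COL1A2, whose chain is built into the same collagen, had 1 count in all. FN1, the fibronectin gene, had 2.25 ± 0.134 FPKM, SPARC 0.243 FPKM, and PDGFRA 0 counts.

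None of 13 endothelial, 17 leukocyte or 10 intestinal genes was expressed, and the summed level of the endothelial list was 1.23 ± 0.0696 FPKM. In bulk RNA a few cells of a type and little RNA in each cell cannot be told apart. Of 11 cholangiocyte genes, which mark bile duct cells, 3 were expressed, namely KRT7, SLC4A2, an anion exchanger gene, at 26.3 ± 0.299 FPKM, and SOX4 at 20.4 ± 0.131 FPKM. Of 11 muscle genes 3 were expressed, namely ACTC1, the cardiac actin gene, at 5.63 FPKM, NKX2-5, a heart factor gene, at 3.91 FPKM and MB, the myoglobin gene, at 1.80 FPKM. Of 13 kidney and reproductive tract genes the 3 expressed were HOXA11, HOXA10 and HOXA13. In 3 further lists 1 gene stood alone, and in the pluripotency and germ cell list as well. ENO2, an enolase gene of neurons that other cells also use, had 25.4 FPKM, with the other 15 neural genes under 1. NKX2-1, the lung and thyroid factor gene, had 5.18, 4.75 and 4.57 FPKM, but the surfactant and thyroid genes of that list were under 1 FPKM. MITF, a pigment cell factor gene, had 7.46 FPKM, with the other 5 melanocyte genes under 1. POU5F1, a pluripotency factor gene with near-identical copies elsewhere in the genome, had 3.65 ± 0.122 FPKM, whereas NANOG and SOX2 had 0 counts.

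Cancer-testis antigens, which healthy tissue outside the germ line largely lacks, were expressed in 8 of 69 cases (11.6%), and 43 had 0 counts. Those at 0 include near-identical copies, such as the GAGE and SPANX genes. Reads shared between copies can have gone uncounted. MAGEB2 had 56.6, 49.4 and 50.2 FPKM, XAGE2 had 43.3, 40.5 and 41.6 FPKM, and MAGEA6 and MAGEA3 had 28.3 and 14.2 FPKM. MAGEA3 and MAGEA6 are near-identical copies, so their separate levels are uncertain. PRAME, another antigen of this kind, had 5.16 ± 0.181 FPKM.

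**Figure D3:**
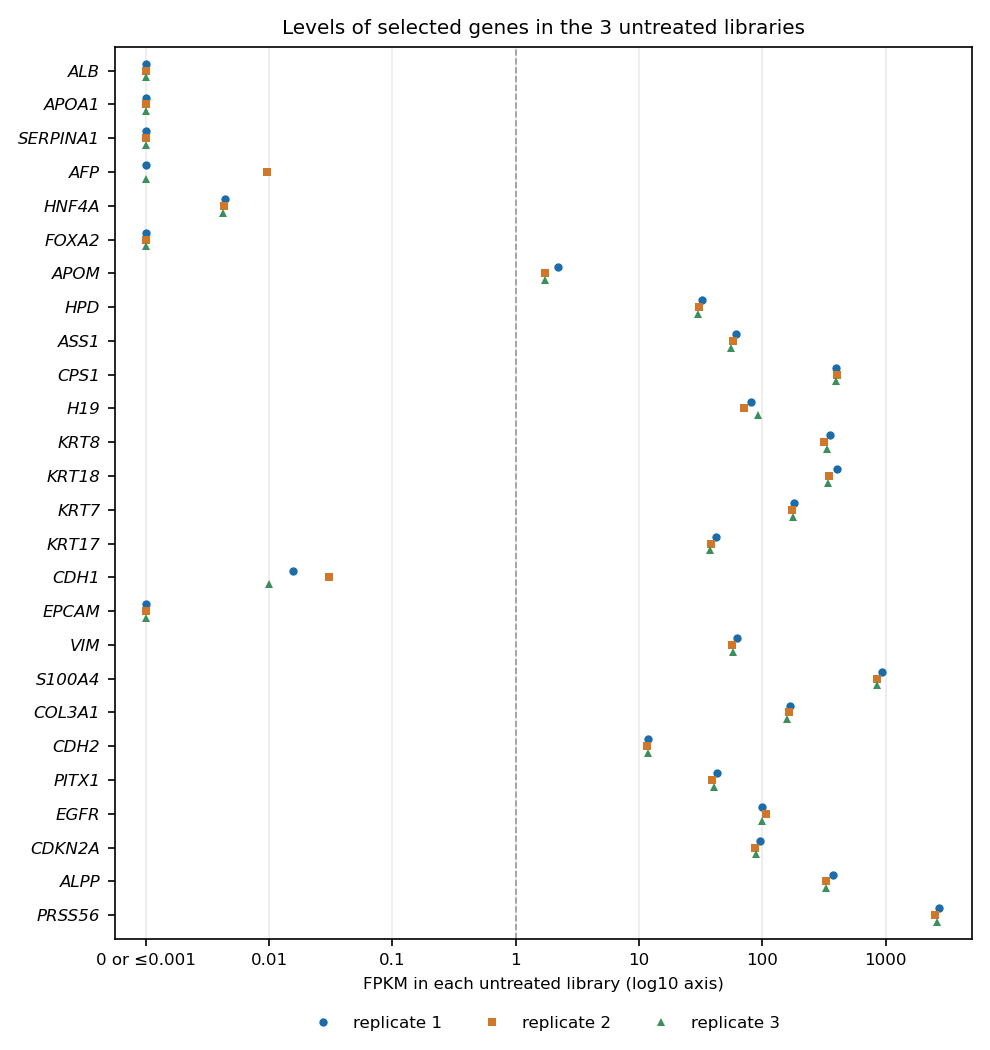
FPKM of 26 selected genes in each of the 3 untreated libraries (log10 axis), 1 symbol per replicate, with values at or very near 0 at the left edge and a dashed line at 1 FPKM. ALB, APOA1, SERPINA1, FOXA2 and EPCAM lie at 0 in all 3 libraries, and the 3 symbols of each gene above 1 FPKM lie close together.

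Of the 1548 genes that the deposited table places in a transcription factor family, 758 were expressed (49%), close to the share of all protein-coding genes, and 11 were abundant. In the families listed here, ATF4, the factor of the amino acid and stress response, was highest at 153, 145 and 146 FPKM. MYC, a growth regulator gene, had 145, 139 and 141 FPKM. ATF4 was above MYC in every library. ID3 and ID1, inhibitors of the helix-loop-helix factors, had 131 ± 6.51 and 102 ± 5.06 FPKM. YAP1, a coactivator of the Hippo pathway, had 127, 129 and 129 FPKM, and its DNA-binding partner TEAD1 had 32.7 ± 2.09 FPKM. JUND, of the AP-1 family, had 110 ± 5.8 FPKM, and MYBL2, a factor of dividing cells, had 67.6 ± 2.74 FPKM.

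PITX1, a hindlimb and pituitary factor gene, was the highest of 80 LIM, NKX and related homeobox genes at 43.3, 39.3 and 40.3 FPKM. FOXC1, FOXF2 and FOXF1, forkhead genes known from mesenchyme, had 31.5, 25.95 and 13.96 FPKM. TFAP2A, an ectodermal and trophoblast factor gene, had 22.5 ± 0.732 FPKM, GATA2, a blood and trophoblast factor gene, had 18.99 ± 0.768 FPKM, and SOX4 had 20.4 ± 0.131 FPKM. GATA6 had 1.69 FPKM, and the other 4 GATA genes were under 1 FPKM. Of 19 SOX genes 3 were expressed, and of 9 PAX genes 1 was, namely PAX9 at 1.33 FPKM.

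HOX genes, which hold the positional code of the body axis, were expressed in 22 of 39 cases (56.4%). HOXC10 had 28.0, 25.4 and 25.2 FPKM, HOXB7 had 15.1, 14.1 and 13.6 FPKM, and HOXA11 had 10.2 ± 0.346 FPKM. These 3 kept their order in every library. HOXB2, HOXC13, HOXA10 and HOXB6 followed at 8.46 to 7.83 FPKM, and the ranges of neighbours among these 4 overlapped. Adjacent HOX genes overlap one another in the annotation, which can affect their counts. All 4 clusters had expressed members, with HOXD9 at 4.91 FPKM the highest of the HOXD cluster.

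Of 48 nuclear receptor genes, 24 were expressed. NR2F6, an orphan receptor gene, was highest at 42.8 ± 1.39 FPKM, and NR3C1, the glucocorticoid receptor gene, had 15.2 ± 0.35 FPKM. ESR1, the estrogen receptor gene, had 0.142 FPKM. The retinoid receptor genes RXRB and RARG had 23.5 and 11.4 FPKM.

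Of 58 receptor tyrosine kinase genes, 18 were expressed (31%). EGFR, the epidermal growth factor receptor gene, was highest at 99.1, 108 and 99.6 FPKM. MET, the hepatocyte growth factor receptor gene, followed at 42.8, 44.9 and 45.0 FPKM. EPHA2, an ephrin receptor gene, and AXL, a receptor gene for GAS6, had 21.5 ± 0.544 and 21.2 ± 0.442 FPKM, and their ranges overlapped. DDR1, a collagen receptor gene, had 14.6 ± 0.149 FPKM. IGF1R had 12.8 ± 0.52 and EPHB4 12.2 ± 0.32 FPKM, again with ranges that overlapped. ERBB2 had 6.31 ± 0.162 FPKM, while its relatives ERBB3 and ERBB4 had 0.43 and 0.228 FPKM. FGFR4, a fibroblast growth factor receptor gene that the liver also uses, and FGFR3 had 5.77 and 5.62 FPKM and were not ordered. INSR, the insulin receptor gene, had 0.73 FPKM, under the threshold. KIT, ALK, KDR and FLT3 had 0 counts.

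**Figure D4:**
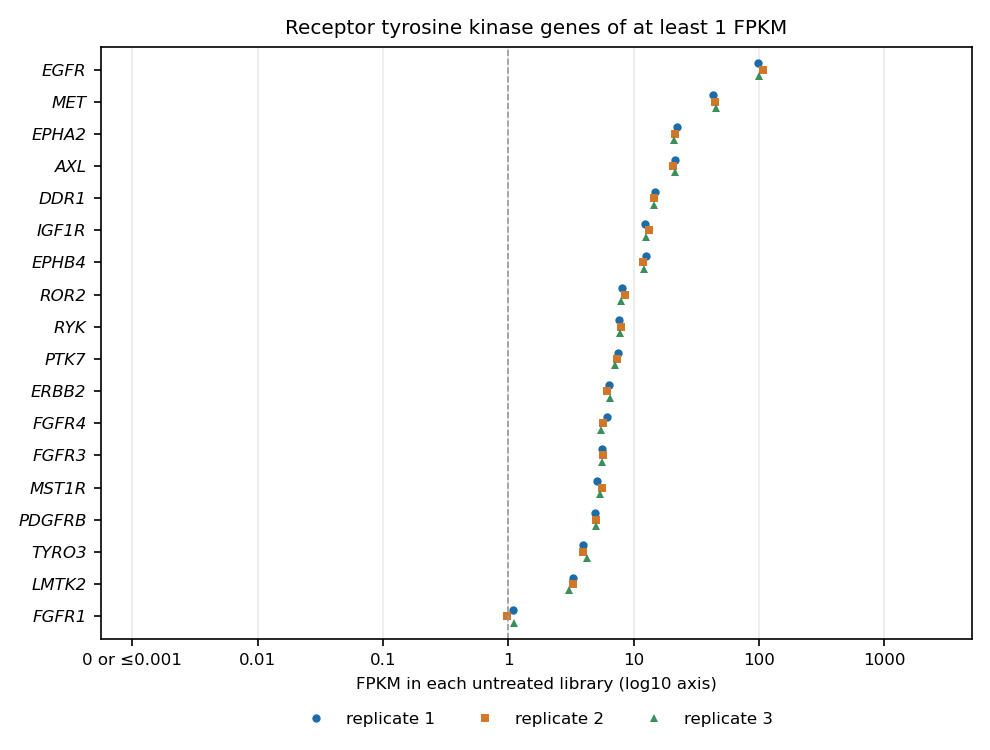
FPKM of the 18 receptor tyrosine kinase genes with a mean of at least 1 FPKM in each of the 3 untreated libraries (log10 axis), 1 symbol per replicate. EGFR stands apart near 100 and MET near 44, and the symbols of EPHA2 and AXL overlap.

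Integrins bind cells to matrix as pairs of an alpha and a beta chain. ITGB1, the beta chain shared by many pairs, had 112, 114 and 112 FPKM. ITGB5 had 43.3 ± 0.329 FPKM and its partner ITGAV 12.4 ± 0.356 FPKM. ITGA3, a laminin receptor chain, had 10.5 ± 0.336 FPKM. In all 8 of 26 integrin genes were expressed. BSG, a chaperone of lactate carriers, had 186 ± 8.03 FPKM and was the 1 abundant member of 30 further surface antigens. CAVIN1 and CAV1, which build caveolae, had 99.4 and 43.1 FPKM, and CD55, a complement regulator, had 81.8 ± 1.79 FPKM.

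Of 83 cytokine and chemokine receptor genes 18 were expressed (21.7%), led by LIFR at 18.0, 20.4 and 19.2 FPKM and CXCR4 at 14.1, 16.02 and 13.5 FPKM. Of 136 receptor genes for hormones and transmitters 21 were expressed (15.4%), and only GPRC5A, an orphan receptor gene of epithelia, passed 10 FPKM at 18.3 ± 0.44. Of 14 TGF-beta and BMP receptor genes 9 were expressed, led by TGFBR2 at 13.9 ± 0.286 FPKM. FZD2, a WNT receptor gene, had 24.5 ± 0.907 FPKM. TNFRSF10B, a TRAIL death receptor gene, had 22.9 ± 0.607 FPKM. B2M, the light chain of class I molecules, had 62.6 ± 3.29 FPKM.

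Among metabolic genes, the glycolytic chain was high. Of 30 genes of glucose uptake, glycolysis and lactate, 22 were expressed (73.3%) and 7 were abundant. ENO1 had 738 ± 36 FPKM, TPI1 422 ± 19.8 FPKM, LDHA 279 ± 9.02 FPKM and PKM 223 ± 10.6 FPKM. All 21 TCA cycle genes were expressed but none was abundant, with FH, the fumarase gene, highest at 63.0 ± 1.11 FPKM. All 9 genes of the pentose phosphate path and NADPH supply and all 15 of cholesterol synthesis were expressed. TKT, the transketolase gene, had 161 ± 7.02 FPKM.

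The liver form of an enzyme was set beside its general form for 10 steps, pairs that were chosen after values were seen. In all 10 of these chosen pairs the liver form was under 1 FPKM, and the general form was higher in each of the 3 libraries. The pairs do not cover every liver form. PFKL, the liver-type phosphofructokinase gene, was left out of the pairs and had 17 FPKM, beside 28.9 of PFKM and 62.6 of PFKP. PKM, pyruvate kinase of most tissues, had 236, 216 and 218 FPKM, against 0.00656 FPKM of the liver form PKLR. MAT2A, a methionine adenosyltransferase gene, had 71.0, 72.7 and 72.2 FPKM, against 0.0029 FPKM of MAT1A. SLC2A1, the general glucose carrier gene, had 26.8 ± 0.195 FPKM, against 1 count in all of SLC2A2. GYS2 and G6PC had 0 counts, while GYS1 and G6PC3 had 27.5 and 15.9 FPKM. The span of GYS2 overlaps another annotated gene on its strand, and whether this cost reads was not tested. The highest liver form was PCK1 at 0.697 ± 0.0677 FPKM, against 12.5 ± 0.779 FPKM of PCK2. ALDOA, at 2.75 ± 0.115 FPKM, overlaps another coding entry on its strand, so its own reads can have gone uncounted.

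**Figure D5:**
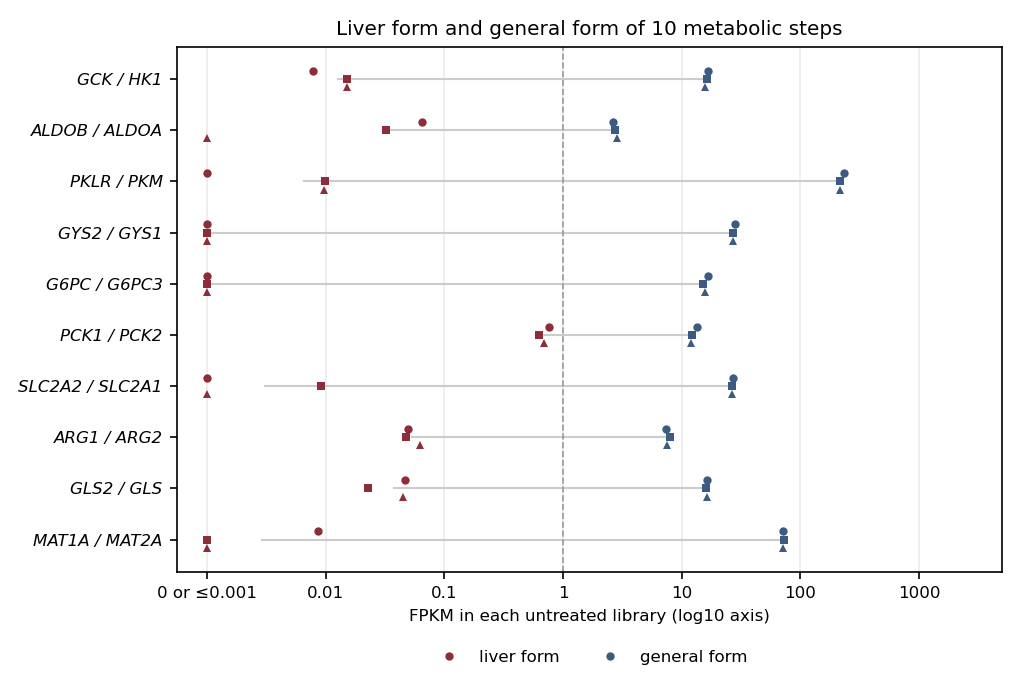
FPKM of the liver form (red) and the general form (blue) of 10 metabolic steps in each of the 3 untreated libraries (log10 axis), with a grey line joining the 2 means and circles, squares and triangles for replicates 1, 2 and 3. Each red symbol lies left of the dashed line at 1 FPKM, and each blue symbol lies right of it.

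Of 15 genes of glutamine use and amino acid transport, 14 were expressed and 2 abundant. SLC7A5, which imports large neutral amino acids, had 290, 289 and 285 FPKM, and its heavy chain SLC3A2 had 96.3 ± 3.58 FPKM. SLC38A2, a glutamine carrier gene, had 131 ± 1.47 FPKM. PSAT1 and SHMT2, of serine and glycine synthesis, had 71.7 and 65.0 FPKM. In lipid metabolism SCD, the stearoyl desaturase gene, had 145, 147 and 142 FPKM and FASN, the fatty acid synthase gene, 44.3 ± 1.9 FPKM. OXCT1, which uses ketone bodies and which hepatocytes lack, had 55.2 ± 1.71 FPKM.

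Genes for drug metabolism bear on coumarin, which the liver enzyme CYP2A6 hydroxylates. CYP2A6 had 0, 0 and 2 counts, CYP3A4 and CYP1A2 had 0 counts, and CYP2E1 had 1 count in all. CYP1A1, a target of the aryl hydrocarbon receptor, had 22, 25 and 35 counts, or 0.25 ± 0.0576 FPKM. In all 8 of 55 cytochrome P450 genes were expressed (14.5%), none above 10 FPKM, led by CYP2S1 at 5.46 ± 0.236 FPKM and CYP24A1, which degrades vitamin D, at 4.91 ± 0.379 FPKM. Of 54 UGT, SULT and GST genes, which conjugate drugs, 15 were expressed (27.8%) and 23 had 0 counts, with a median of 0.00598 FPKM. Of 56 aldehyde and aldo-keto enzyme genes, 33 were expressed (58.9%). GSTP1, a glutathione transferase gene, had 248, 230 and 234 FPKM, and NQO1, a quinone reductase gene, had 216, 194 and 201 FPKM. AKR1C3, an aldo-keto reductase gene with close relatives, had 63.0 ± 3.15 FPKM.

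Among secreted products other than plasma proteins, IGFBP3, an insulin-like growth factor binding protein gene, had 330, 313 and 330 FPKM, and IGFBP7, a relative found in matrix, had 53.2 ± 2.39 FPKM. HDGF, a growth factor gene, had 192 ± 6.34 FPKM. CTSZ, a cathepsin gene, had 113 ± 4.28 FPKM, and PRSS21, a membrane serine protease gene of testis, had 77.3, 69.8 and 74.0 FPKM. SLPI, a protease inhibitor gene of mucosa, had 55.3 ± 3.42 FPKM, and TIMP1, a metalloprotease inhibitor gene, 51.9 ± 2.59 FPKM. Thus 32 of 152 protease genes (21.1%) and 20 of 71 inhibitor genes (28.2%) were expressed.

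Of 92 matrix genes 36 were expressed (39.1%), with FBLN1, the fibulin gene, at 67.0 ± 2.78 FPKM next after COL3A1, and LAMA5, a laminin chain gene of basement membranes, at 37.3 ± 1.41 FPKM. Among signalling ligands BMP2 had 33.8 ± 0.684 FPKM, WNT5A 12.7 ± 0.123 FPKM and VEGFA, a vessel growth factor gene, 18.6 ± 1.05 FPKM. Of 127 chemokine and interleukin genes 13 were expressed (10.2%), led by TNFSF9 at 18.8 ± 0.173 FPKM and IL18 at 18.3 ± 0.927 FPKM. Of 54 peptide hormone genes 8 were expressed (14.8%). GAL, the galanin gene, had 39.4, 35.0 and 36.2 FPKM, and INSL4, a relaxin-like gene of placenta, had 17.4, 14.3 and 15.4 FPKM. RLN1 and RLN2, relaxin genes near INSL4, and the chorionic gonadotropin genes CGB3, CGB5 and CGB8 had 0 counts. The CGB genes are near-identical copies of one another, and RLN1 and RLN2 are close copies. Reads shared between copies can have gone uncounted, so these counts need not mean that the RNA was absent.

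All 16 proliferation genes were expressed after 24 h without serum. PCNA, the sliding clamp gene of DNA replication, had 255, 231 and 233 FPKM, TOP2A, a topoisomerase gene, had 97.0, 105 and 104 FPKM, and MKI67, the Ki-67 gene, had 16.6, 19.9 and 17.3 FPKM. CDKN2A, a cyclin-dependent kinase inhibitor gene that many tumour lines have lost, had 96.4, 87.4 and 89.4 FPKM, and its neighbours CDKN2B and MTAP had 9.44 and 4.33 FPKM. CDKN1A, another inhibitor gene of these kinases, had 18.7 ± 0.429 FPKM. TERT, the telomerase gene, was under 1 FPKM at 0.498 ± 0.0755.

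The 3 libraries agreed closely. Over 3995 protein-coding genes of at least 10 FPKM, the median ratio of the highest to the lowest library was 1.06 on the TPM scale, which sums to the same total in each library. Only SMN1, the survival motor neuron gene, passed a ratio of 1.5, with 50.98, 53.2 and 13.1 TPM. SMN1 and its near-identical copy SMN2 together had 1874, 1834 and 710 counts, so the low value of replicate 3 was not made up by SMN2. The next largest ratios were 1.44 for ZKSCAN8, a zinc finger gene, and 1.43 for GOLGA8A, a golgin gene.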

How the data were processed

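Poly(dT)-selected RNA of the cells was sequenced, and the authors deposited raw whole-number counts for 58735 genes. Their second deposited table holds FPKM. The library total behind FPKM exceeded the summed gene counts by 3.91%, 8.03% and 8.17% of the total in replicates 1, 2 and 3, and its origin is not stated. The submitters' processing notes name HISAT2, DESeq2 and GRCh38 but give no versions. How reads were counted, and with which strand setting, is not given in the sources used here. Coordinates are those of the deposited table (GRCh38).

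Groups follow the labelled dose, and only 0 µM was used, so no test between groups was made. Means and SD of FPKM were computed with Python 3.11.15 and pandas 2.3.3, and TPM from counts and gene lengths. TMM factors (0.975 to 1.01) and a biological coefficient of variation of 4.69% over 15010 genes came from edgeR 4.0.16 in R 4.3.3, tested on simulated data. No pair of libraries agreed within sampling noise. Mean chi-square per degree of freedom was 7.26 for replicates 1 and 2. It was 6.42 for replicates 1 and 3 and 2.54 for replicates 2 and 3, so replicate 1 stood furthest from the others.

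Members and lists (78) were chosen with earlier results of these data known, and 9 symbols that a name pattern had caught wrongly were removed after their values were seen. Genes named in the text were taken from the 25 highest nuclear protein-coding genes, the 15 highest of the listed transcription factor families, up to 8 expressed members and any member under 1 FPKM of each list, the 10 highest noncoding genes and the 10 coding genes that varied most. ALPP, ALPI, ALPG, ALPL, CHRND and the other neighbours, SMN2, the CGB genes and the isozyme pairs were chosen after values were seen. Promoter windows from RefSeq matched 15334 of 19951 genes (76.9%), under the 80% needed, so the planned check of base composition by level is void and no result is given. Some genes are not reported here. Counts and SD of so few libraries limit the precision, and floors cover counting error only. Alternatives were another scaling (TPM, TMM, CPM), other thresholds, and leaving out each library.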

Additional observations from a re-analysis of the deposited data

How the results depend on the processing

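Of 291 abundant genes, the number became 1272 by TPM, 685 at a threshold of 50 FPKM, 127 at 200 FPKM and 2076 by CPM, and all 291 were among those by TPM. The TPM scale sums to a larger total than the deposited FPKM, by construction. The number of expressed genes ran from 8897 to 11527 over all alternatives. Expressed hepatocyte plasma protein genes, 2 as reported, numbered 4 by TPM, 4 at 0.5 FPKM, 1 at 2 FPKM and 4 by CPM. Expressed hepatocyte transcription factor genes, 3 as reported, numbered 6 by TPM, 5 at 0.5 FPKM and 6 by CPM, and expressed transporters fell from 2 to 1 at 2 FPKM. The summed plasma protein level of 49.5 FPKM was 167 as TPM and 53.1 with TMM scaling. Genes past a ratio of 1.5 between libraries were 1 as reported and 73 at a minimum of 1 FPKM. Leaving out each library gave 0 to 1 of them, 0 being without replicate 3, the library low in SMN1. Of 78 list counts, 63 stayed within 1.5 times by TPM, 59 by CPM, 78 without replicate 1 and 77 without replicate 2, where breast and prostate genes went from 2 to 1. Of 455 named levels, 455 moved by over 1 SD with TPM, which is a different scale, and 391 with TMM scaling. None moved when a library was left out, but that outcome was fixed in advance. Leaving out 1 of 3 libraries cannot shift a mean by 1 SD of the 3, so this says nothing about stability. The promoter alternative was not run, since that check is void. No paired analysis was possible because only 1 group is described and no test was made.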

Other observations

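Some further levels stood out and belong to none of the lists above; these genes were picked after their values were seen. HMGA1, a chromatin protein gene of embryonic and tumour cells, had 338, 309 and 309 FPKM. BST2, the tetherin gene, which interferon induces, had 328, 285 and 309 FPKM. TM4SF1, a tetraspanin-like surface gene, had 145, 141 and 140 FPKM, MRC2, a collagen uptake receptor gene, had 141, 139 and 134 FPKM, and AQP3, a water and glycerol channel gene, had 98.5, 90.2 and 91.9 FPKM. IGF2BP3 and IGF2BP1, fetal RNA-binding protein genes, had 8.61 ± 0.448 and 7.45 ± 0.268 FPKM.

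Among noncoding genes, MT-RNR2, the large mitochondrial ribosomal RNA, was highest at 7425 ± 306 FPKM, although RNA was selected on poly(dT). RPS28P7 at 2664 ± 127 FPKM and RPL39P3 at 1278 ± 112 FPKM are annotated as pseudogenes of ribosomal protein genes and share sequence with them, so the origin of their reads is uncertain. Among mitochondrial protein-coding genes, MT-CO1 was highest at 8977 ± 453 FPKM and MT-ATP8 lowest at 146 ± 11.5 FPKM. MT-ATP8 (positions 8366 to 8572) overlaps MT-ATP6 (8527 to 9207) on the same strand, so its reads can have gone uncounted.

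The share of protein-coding genes that were expressed ran from 39.5% of 845 on the X chromosome and 41.6% of 231 on chromosome 21 to 57% of 855 on chromosome 16. Chromosome 18 had 139 of 269 genes expressed (51.7%) and none abundant.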
